A study of Rattus norvegicus with 4 samples.

Results

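GPR17 is a G protein-coupled receptor of oligodendrocyte precursor cells (OPCs), and by sequence it lies between the P2Y receptors for extracellular nucleotides and the receptors for cysteinyl leukotrienes. It appears for a limited time as OPCs pass to premyelinating oligodendrocytes and is switched off again before these cells myelinate. Its ligands are debated, since uracil nucleotides, UDP-sugars and cysteinyl leukotrienes have all been proposed. The genes described here are Gpr17 and its closest relatives, 10 in all: the P2Y receptor genes P2ry1, P2ry2, P2ry4, P2ry6, P2ry12, P2ry13 and P2ry14, and the cysteinyl leukotriene receptor genes Cysltr1 and Cysltr2. They were taken by name, not by any measured value, and they stand for 10 of the 16581 genes that could be named on the array. A probe was assigned to one of them when its transcript accession belonged to that gene, which gave 13 of 45598 non-control probes, each printed as a single spot.

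The cells were primary OPCs from the pooled cortices of Sprague–Dawley rat pups at postnatal day 2, grown for 3 days with PDGF and bFGF. On the change to differentiating medium with thyroid hormone T3 they received a pool of siRNAs against rat Gpr17 (siGPR17) or a pool of RNAs with no target (siNEG), each at 50 nM, and they were lysed after 48 h, at day in differentiation 2. Each condition had 2 samples, which the labels call independent, and each sample was hybridised to its own one-color array. Silencing lowers a transcript without removing its gene, and a pool of siRNAs was used, so that the effect of a single siRNA cannot be read from these data. All groups shared the transfection reagent and the medium, and no untransfected OPCs were included in this comparison.

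Each array carried 26997 to 28244 probes whose signal was well above background, and none of the non-control spots was saturated. Signals are given in intensity units after each array was scaled to its 75th percentile, which was 564.9 to 624.1 before scaling. The level of one probe is not set against that of another, because probes differ in how strongly they bind. Over all probes the log2 signals of any pair of arrays correlated with r between 0.989 and 0.991, and tested probes differed between replicates with a SD of 0.37 (log2) in siNEG and 0.29 in siGPR17. One slide held the 4 arrays, with siNEG in column 4 and siGPR17 in column 3, so slide column and treatment cannot be told apart. In this bulk RNA, fewer cells of a type and less RNA per cell cannot be told apart either. All 12 oligodendrocyte lineage genes checked as markers were well above background, among them Mbp, Bcas1 and Olig2, and their summed signal was 549439 and 621049 in siNEG and 599286 and 612919 in siGPR17. Mbp was the largest single part of it, with 197178 and 227699 against 256521 and 272873. By gene, 4 were higher and 8 lower (median log2 fold change -0.17), though 6 were higher with spike-in scaling. Groups did not overlap for 4 upwards and 6 downwards, beside 28.1% and 25.3% of all tested genes.

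Receptor by receptor, 6 probes for 5 genes were bright enough to be tested, which required 2 or more of the 4 arrays to show the probe well above background. These were the probes of Gpr17, P2ry1 (both of its probes), P2ry2, P2ry12 and 1 of the P2ry6 probes. The remaining 7 probes were not tested, and 5 genes (P2ry4, P2ry13, P2ry14, Cysltr1 and Cysltr2) thus have signals but no test. For 4 of these genes (P2ry4, P2ry14, Cysltr1 and Cysltr2) no probe was well above background on any array.

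**Figure D1:**
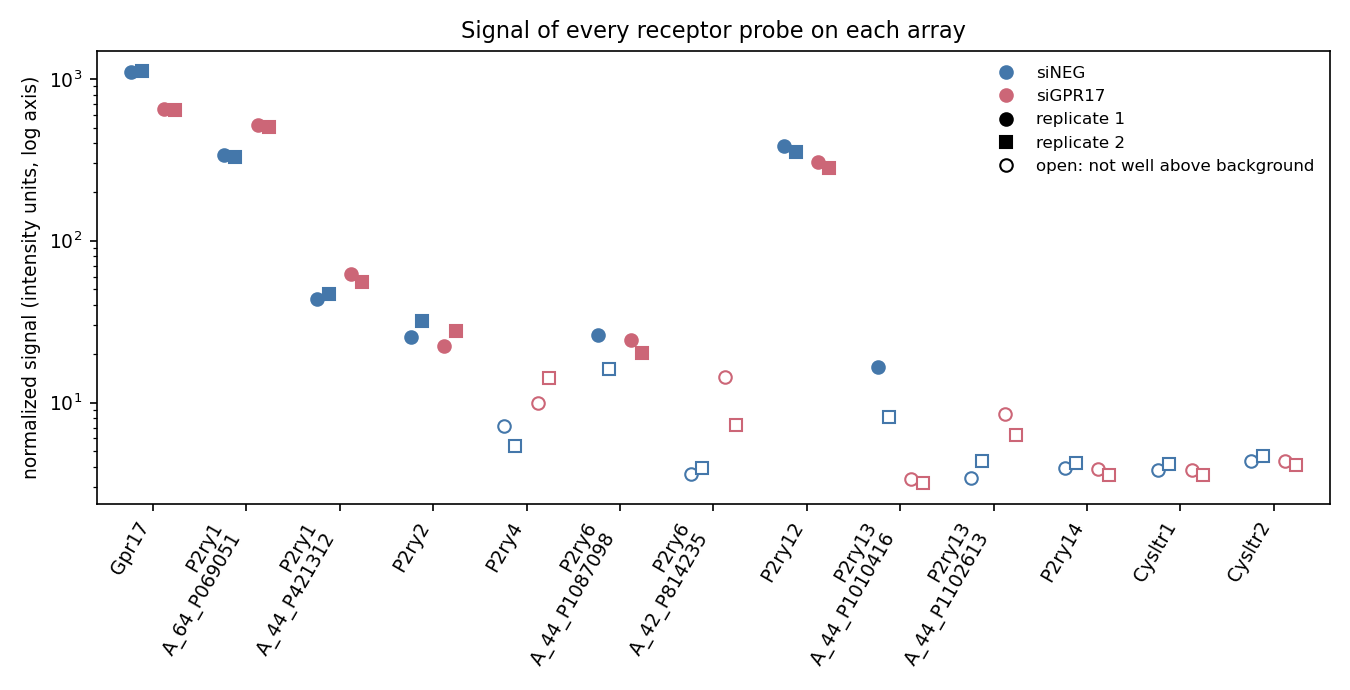
Normalized signal in intensity units (log axis) of each of the 13 receptor probes on the 4 arrays, with siNEG in blue, siGPR17 in red, circles for replicate 1, squares for replicate 2 and open symbols where a spot was not well above background. The Gpr17 and P2ry12 signals lie lower in both siGPR17 samples, those of both P2ry1 probes lie higher, and the probes of P2ry14, Cysltr1 and Cysltr2 stay between 3.57 and 4.68 on every array.

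Gpr17, the target of the siRNAs, was lower in both siGPR17 samples. Its probe (A_64_P018212, for the transcript NM_001071777) gave a normalized signal of 1107 and 1113 in the siNEG samples and of 652 and 639 in the siGPR17 samples. The groups were thus far apart and the replicates close together, with means of 1110.2 ± 4.05 (SD, n = 2) and 645.9 ± 9.14 (SD, n = 2). The siGPR17 signal was 58.2% of that in siNEG, a reduction of 41.8%, by the mean log2 values. On the log2 scale the change was -0.78 (standard error 0.085, 95% interval -1.01 to -0.55), and every pairing of a siGPR17 with a siNEG array gave a value between -0.80 and -0.76. The scanning software put the error of this spot at about 10% on each array.

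The adjusted p for Gpr17 was 0.209 in limma with Benjamini-Hochberg adjustment over 28016 tested probes, so the probe was past the study's fold change of 1.5 and not past its adjusted p of 0.07. At these thresholds 1 probe of the whole array passed, or 0.00357% of those tested, and it was not a receptor probe. An exact permutation test over the 4 samples gave a two-sided p of 0.333, the smallest that 2 against 2 samples allow. Of all tested probes, 375 or 1.34% had a change as low as that of Gpr17 or lower. Only the estimate of the spread or the background correction altered the call: the adjusted p was 0.0152 when limma used a mean-variance trend with robust estimation and 0.022 after normexp background correction, under which the log2 change was -0.66.

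Of the 6 tested receptor probes, 0 were past both thresholds by limma. The count was also 0 by the methods' t-test, the unpaired two-tailed test that the study names for 2 groups. At an unadjusted p under 0.05 limma gave 4, beside 16.7% of all tested probes (7.58% higher and 9.12% lower). The methods' t-test gave 2, beside 3644 of the 28016 tested probes. In 2 probes (Gpr17 and P2ry12) both siGPR17 signals were below both siNEG signals and in 2 (the pair for P2ry1) both were above, while in the other 2 (P2ry2 and P2ry6) the groups overlapped. Groups that did not overlap were common on this array, at 52.6% of all tested probes (27.4% higher and 25.2% lower). A change of at least 1.5-fold was seen in 1 receptor probe downwards and in 1 upwards, against 3.58% and 3.06% of all tested probes, or 6.64% in either direction.

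**Figure D2:**
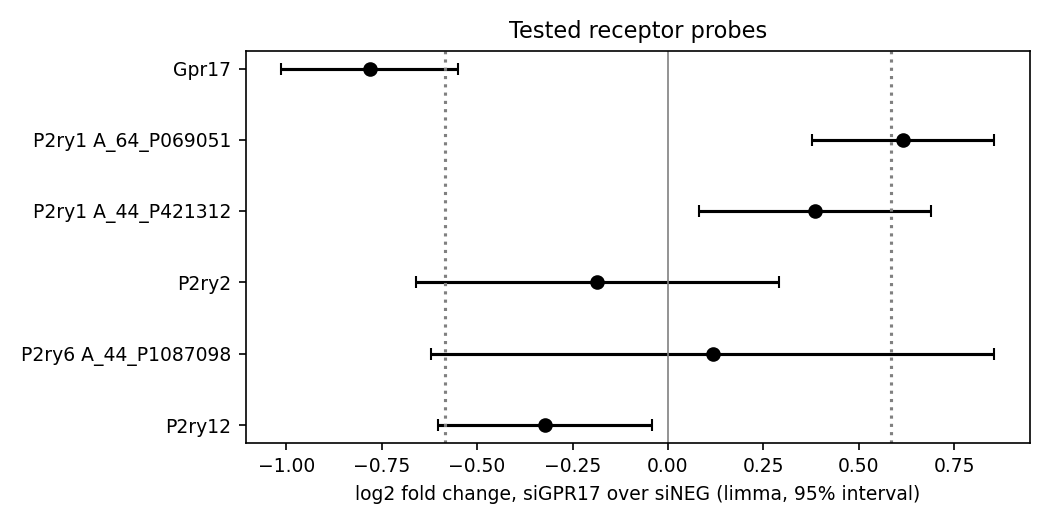
Log2 fold change of siGPR17 over siNEG for the 6 tested receptor probes, with the 95% interval from limma as bars and dotted lines at a fold change of 1.5 in either direction. The intervals for Gpr17, P2ry12 and both P2ry1 probes lie on one side of 0, while those for P2ry2 and P2ry6 reach from negative to positive values.

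P2ry1 encodes a receptor for ADP that acts through Gq and phospholipase C, and it was the member whose tested probes were higher in siGPR17 without overlap. Its brighter probe (A_64_P069051) gave 340.4 and 328 in siNEG and 519.9 and 505 in siGPR17 samples. Both siGPR17 samples were above both siNEG samples by more than the replicates differed. In siNEG the mean signal was 334 ± 8.41 (SD, n = 2), and siGPR17 samples reached 512 ± 10.6 (SD, n = 2), an increase of 53.2% by the mean log2 values. The log2 fold change was 0.62 (standard error 0.087, 95% interval 0.38 to 0.85), with an adjusted p of 0.209 in limma. A change at least as high was found in 739 tested probes, or 2.64%. This probe was past both thresholds under the trend and robust option alone, with an adjusted p of 0.029.

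The other P2ry1 probe (A_44_P421312), which carries the same accession, was dimmer and differed in the same direction. It gave 43.5 and 46.7 in siNEG and 62.7 and 55.2 in siGPR17 samples, again without overlap. The log2 fold change was 0.38 (standard error 0.11, 95% interval 0.08 to 0.69), with an adjusted p of 0.253 in limma. As both probes read the same RNA samples, they are separate readings of a transcript and not separate replicates of the treatment.

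Endothelial markers are given beside P2ry1. Of the 6 genes listed, Kdr, Cdh5 and Tek were tested, with adjusted p of 0.209, 0.353 and 0.235 in limma. In the reported setting 0 passed the thresholds. An unadjusted p under 0.05 was reached upwards by 2 of these 3, beside 7.43% of all tested genes. Robust estimation with a mean-variance trend put 1 of the 3 past both thresholds. All 3 had higher signals in siGPR17 (median log2 fold change 0.51, or 0.25 after normexp), as did 52.0% of all tested genes, with summed list signals of 337 and 354 in siNEG and of 508 and 507 in siGPR17 samples. Kdr, Cdh5 and Tek were well above background on every array, while Cldn5 and Pecam1 were not on any. Astrocytes also use P2ry1, and of their 9 markers, 4 were higher and 5 lower (median -0.03, or 0.01 after normexp and 0.10 with spike-in scaling), with S100b at 0.50 and Slc1a3 at -0.37 among the brightest. The largest changes of that list, named after their values were seen, were those of Aqp4 (161 and 169 against 72.9 and 57.1, log2 fold change -1.35) and Gfap (-0.61), both lower without overlap. Groups did not overlap for 2 of the astrocyte markers upwards and 4 downwards, beside 28.1% and 25.3% of all tested genes. Those upwards were S100b, whose second probe was at 0.65, and Fgfr3 (0.23). The part of either cell type in the P2ry1 difference was not tested.

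P2ry12 encodes a Gi-coupled ADP receptor, best known from platelets and microglia. The signal of its probe (A_43_P12315) was 383 and 353 in siNEG and 307 and 282 in siGPR17 samples. The siGPR17 samples were the lower ones, though the gap between the groups was narrower than for Gpr17. The means were 368 ± 20.7 (SD, n = 2) and 294 ± 17.7 (SD, n = 2), which is a reduction of 20.0% by the mean log2 values. The log2 fold change was -0.32 (standard error 0.10, 95% interval -0.60 to -0.04), with an adjusted p of 0.269 in limma. Lower values than this, or equal ones, were found in 12.1% of tested probes.

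Because P2ry12 marks microglia, which such cultures can hold, the microglia list is given beside it. Of 18 markers, 11 were tested, and 2 of these were higher and 9 lower in siGPR17, with a median log2 fold change of -0.15 against 0.01 for all tested genes (5 were higher after normexp and 5 with spike-in scaling). Without the first siNEG array 7 of the 11 were higher and the median turned to 0.07. The summed signal of the list was 8934 and 8179 in siNEG and 8700 and 8771 in siGPR17 samples, so these sums overlapped. Csf1r, Ptprc, C1qc, Cd14, Ctss and Fcgr2b were not well above background on any array. Cx3cr1 (2512 and 1241 against 1338 and 1884) overlapped between the groups, while Aif1, named here after its values were seen, was lower (log2 fold change -0.56). The share of the P2ry12 signal that came from microglia was not tested.

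P2ry13, a second Gi-coupled ADP receptor, was close to background. Its probe A_44_P1010416 gave 16.5 and 8.15 in siNEG and 3.39 and 3.18 in siGPR17 samples, and it was well above background on the first siNEG array only. As the second siNEG spot was also not well above background, no limit on a fold change is given, and there was no test. A further probe (A_44_P1102613), designed on a predicted transcript of the gene, pointed the other way, with 3.44 and 4.38 in siNEG and 8.46 and 6.32 in siGPR17, none of them well above background. The probes therefore disagree, and no direction can be given for P2ry13.

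Receptors for uracil nucleotides were dim throughout. P2ry2, a Gq-coupled receptor for ATP and UTP, had signals of 25.5 and 31.7 in siNEG and of 22.5 and 27.8 in siGPR17 samples. These groups overlapped, and the log2 fold change of -0.19 (95% interval -0.66 to 0.29, standard error 0.17, adjusted p = 0.618 in limma) turned to 0.03 after normexp background correction. The interval allows a P2ry2 signal between 0.632 and 1.22 times that of siNEG.

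P2ry6, whose product is a UDP receptor coupled to Gq, was read by 2 probes. The tested one (A_44_P1087098) gave 26.1 and 16.1 in siNEG and 24.2 and 20.4 in siGPR17 samples, with the second siNEG sample not well above background. Its groups overlapped, with a log2 fold change of 0.12 (standard error 0.27, 95% interval -0.62 to 0.85, adjusted p = 0.851 in limma). The sign rested on single arrays, as the value became -0.23 without the second siNEG sample and -0.01 without the first siGPR17 sample. The other probe (A_42_P814235) gave 3.60 and 3.92 against 14.4 and 7.28 and was well above background on no array.

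P2ry4, a receptor for UTP, did not reach a signal well above background, although the software called its spot positive and significant on all 4. Its probe gave 7.19 and 5.38 in siNEG and 10.003 and 14.3 in siGPR17 samples. The software's own error on these spots was between 26.2% and 71.4% of the signal, and no fold change is given.

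P2ry14, the Gi-coupled receptor for UDP-glucose, and the leukotriene receptors were at the floor of the measurement. The P2ry14 probe gave 3.94 and 4.22 in siNEG and 3.87 and 3.57 in siGPR17 samples. The Cysltr1 probe gave 3.83 and 4.17 against 3.84 and 3.57, and that of Cysltr2, the second receptor for cysteinyl leukotrienes, 4.35 and 4.68 against 4.38 and 4.11. None of these spots was called positive and significant on any array, and the software's error was as large as the signal, at about 100%. Before any correction the spot median was below the local background median on every array, for Cysltr1 44.5 against 54.0 on the first siNEG array. A difference between siGPR17 and siNEG was not detectable for these 3 genes, and a low signal of a single probe does not show that a transcript was absent.

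**Figure D3:**
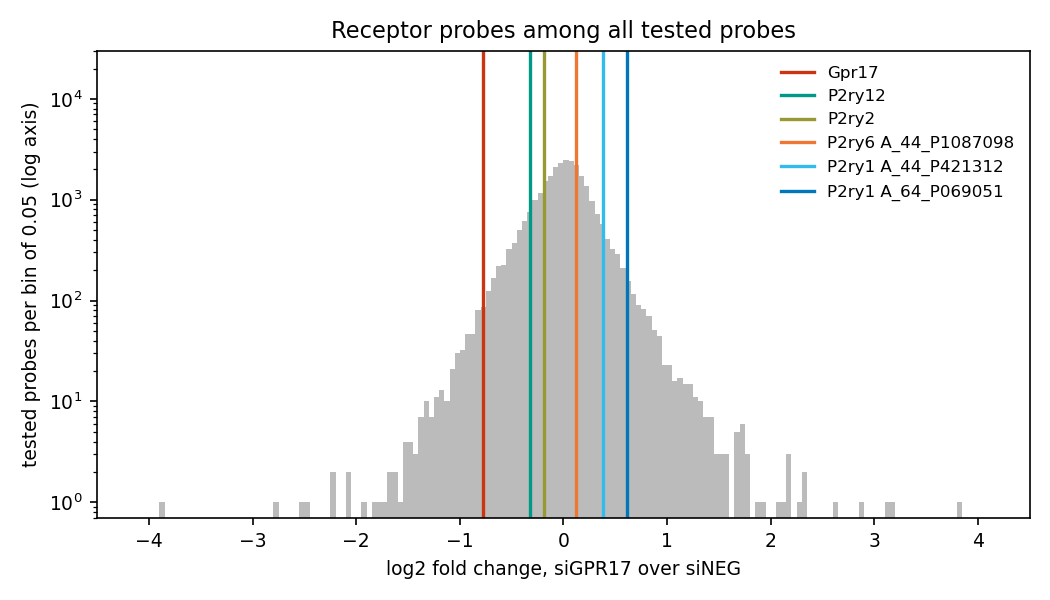
Histogram of the log2 fold change (siGPR17 over siNEG) of all 28016 tested probes, in bins of 0.05 with a log axis for the number of probes, and vertical lines at the tested receptor probes. Gpr17 lies in the lower flank, with 1.34% of probes as low, and the brighter P2ry1 probe in the upper flank, with 2.64% as high, while P2ry2 and P2ry6 lie in the central mass.

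Changes were also expressed relative to Gpr17 on the same array, a difference that the scaling of the array does not alter. The log2 signal of the brighter P2ry1 probe minus that of Gpr17, set to a mean of 0 in siNEG, was 0.03 and -0.03 in siNEG and 1.40 and 1.39 in siGPR17 samples. The mean difference was 1.40 for this probe and 1.17 for the dimmer P2ry1 probe. It was 0.46 for P2ry12, 0.60 for P2ry2 and 0.90 for P2ry6. A probe with no change would read 0.78 in the reported scaling, since Gpr17 itself was lower by that amount, so positive values alone do not set a relative apart. P2ry1 lay above 0.78 and P2ry12 and P2ry2 below it, and the P2ry6 value includes a siNEG spot that was not well above background. That reference does depend on the scaling, as Gpr17 was at -0.66 with spike-in scaling. The comparison with it therefore repeats the scaled fold changes and is no separate reading.

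Genomic neighbours were looked up in a RefSeq gene table (assembly GRCr8), after the files had been seen. Gpr17 overlaps Lims2 and lies between Sft2d3 and Myo7b. The Lims2 probe gave 1843 and 2374 in siNEG and 1825 and 1859 in siGPR17 samples, with overlapping groups and a log2 fold change of -0.18 (adjusted p = 0.576 in limma). Myo7b also overlapped, at 0.06. The brighter probe of Sft2d3 was lower in siGPR17, with 1692 and 2146 against 1297 and 1282 (log2 fold change -0.56, standard error 0.15, adjusted p = 0.235 in limma), whereas its dimmer probe differed by -0.14. The 4 probes around Gpr17 thus ranged from -0.56 to 0.06.

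Some of the other members lie close to each other. P2ry12, P2ry13 and P2ry14 overlap Med12l, for which no probe was matched. Igsf10, which follows P2ry12, overlapped between the groups at -0.20. P2ry2 and P2ry6 are adjacent. P2ry1 lies between Mbnl1 (log2 fold change 0.11, with overlap) and Rap2b (0.22, higher in both siGPR17 samples, adjusted p = 0.328 in limma).

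The genes whose pattern over the 4 arrays was nearest to that of Gpr17 were sought among 11651 tested genes, by the root mean square difference of log2 signals centred on their mean. They were Gad2, a glutamate decarboxylase (distance 0.031 on the log2 scale), Prkar2a, a regulatory subunit of protein kinase A (0.033), Dab2, an endocytic adaptor (0.041), Prmt8, an arginine methyltransferase (0.045), and Tmem178b (0.047). Prmt8 gave 4237 and 4295 in siNEG and 2440.0 and 2277 in siGPR17 samples, a log2 fold change of -0.86. Tmem178b was at -0.71, Dab2 at -0.73 and Prkar2a at -0.79. After normexp, where Gpr17 was at -0.66, Prmt8 and Tmem178b were at -0.83 and -0.74, and Dab2 and Prkar2a at -0.27 and -0.42. With the trend and robust option Prmt8, Tmem178b and Prkar2a were past both thresholds (adjusted p = 0.0132, 0.0189 and 0.0497), and after normexp Prmt8 and Tmem178b were (0.0153 and 0.019). Further probes of Prmt8 (-0.94), Tmem178b (-0.69) and Prkar2a (-0.61) had the same direction. Gad2 was not well above background in siGPR17 and was at least 1.54-fold lower in the reported setting, but its log2 fold change was -0.09 after normexp. Over 4 arrays in 2 groups, this measure covers the size of the difference between the groups and the closeness of the replicates and nothing more. As the genes were picked by it, their adjusted p-values above are no separate support.

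The other genes of nucleotide and leukotriene signalling were described from lists of 88 genes, of which 83 had a probe and 46 were tested. In limma 0 of the 46 were past the thresholds, as were 0 of all 11656 tested genes. With the trend and robust option Enpp1 passed (adjusted p = 0.0349). At an unadjusted p under 0.05, 6 were higher and 1 lower, beside 7.43% and 8.73% of all tested genes. Groups did not overlap for 14 genes upwards and 10 downwards, beside 28.1% and 25.3% of all tested genes. A change of 1.5-fold was reached by P2rx2 and Gnai1 upwards and by Enpp1 downwards, beside 2.43% and 2.65% of all tested genes. P2rx2 is in each of these counts of higher genes, though it passed the filter through the siGPR17 arrays only. The median log2 fold change of the 46 was 0.06, against 0.01 over all tested genes.

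Ligand-gated P2X channels, which open on ATP, had 3 of 7 genes tested. P2rx2 gave 14.4 and 14.5 in siNEG, not well above background, and 31.9 and 36.8 in siGPR17 samples, a fitted difference of 2.37-fold. It passed the filter through the siGPR17 arrays only, so no p is given for it. The limit for dim groups equals the fitted change here, as the siNEG signals themselves were above the dimmest detected ones. After normexp, whose offset draws dim probes towards 0, the log2 fold change was 0.35. A second P2rx2 probe was well above background on no array. The brightest P2rx3 probe overlapped between groups (0.13), and its 2 further probes had lower signals in siGPR17, one with 48.6 and 43.3 against 30.3 and 27.9, so the P2rx3 probes disagree. P2rx4 also overlapped, at 0.06. Among receptors for adenosine, the Gs-coupled Adora2b was higher without overlap, with 72.7 and 72.2 against 96.8 and 105 (log2 fold change 0.48, adjusted p = 0.210 in limma, standard error 0.094), and Adora1 overlapped at 0.16.

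Enzymes and channels that release or break down extracellular nucleotides had 16 tested genes, 10 higher and 6 lower, with a median of 0.03 (6 higher and a median of -0.05 without the first siNEG array). Enpp1, a pyrophosphatase that cleaves extracellular ATP, gave 257 and 274 in siNEG and 171 and 159 in siGPR17 samples. Its log2 fold change was -0.69 (standard error 0.096, adjusted p = 0.209 in limma) and that of a second probe -0.72, both without overlap. After normexp it was -0.45 (adjusted p = 0.0486), below a fold change of 1.5. Panx1, a channel that lets ATP out of cells, was at 0.30 and Enpp4, a relative of Enpp1, at -0.25, again without overlap.

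For leukotriene synthesis, breakdown and other leukotriene receptors, 6 of 15 genes were tested, 3 higher and 3 lower. Alox5ap, Ltc4s, Pla2g4a and Ltb4r were not well above background on any array. Ggt1, which cleaves leukotriene C4, gave 140.5 and 147 against 189.8 and 208 (log2 fold change 0.47, second probe 0.70, adjusted p = 0.214 and 0.209 in limma). Mgst3, a glutathione transferase, was at 0.28 without overlap (0.16 without the first siNEG array). Alox5, the first enzyme of leukotriene synthesis, overlapped at -0.35 and was well above background on 1 array of each group. The median of this list, -0.07, became 0.04 after normexp, 0.05 with spike-in scaling, 0.04 without the second siNEG array and 0.03 without the first siGPR17 array.

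Other receptors of the same rhodopsin branch had 6 of 24 genes tested, 3 on either side of 0, with Lpar6 at -0.31 without overlap (-0.54 without the first siNEG array, -0.09 without the second and -0.14 after normexp) and with Hcar2 (0.19) and F2r (-0.19) overlapping. The median, -0.06, was 0.04 after normexp, 0.07 with spike-in scaling and 0.03 without the first siGPR17 array. Of the G protein alpha subunits and phospholipase C beta enzymes through which these receptors act, 13 of 16 genes were tested, 8 higher and 5 lower, with a median of 0.07 (-0.0038 without the first siNEG array). Gnai1, a Gi subunit, gave 26.2 and 16.0 in siNEG and 31.0 and 84.5 in siGPR17 samples. The fitted value of 1.32 (log2, with a standard error of 0.57 and an adjusted p of 0.340 in limma) was 0.60 without the second siGPR17 sample, 2.05 without the first and 0.32 after normexp. Gnal was at 0.37 (0.21 after normexp), and Plcb3 at 0.34 with a second probe at -0.20.

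**Figure D4:**
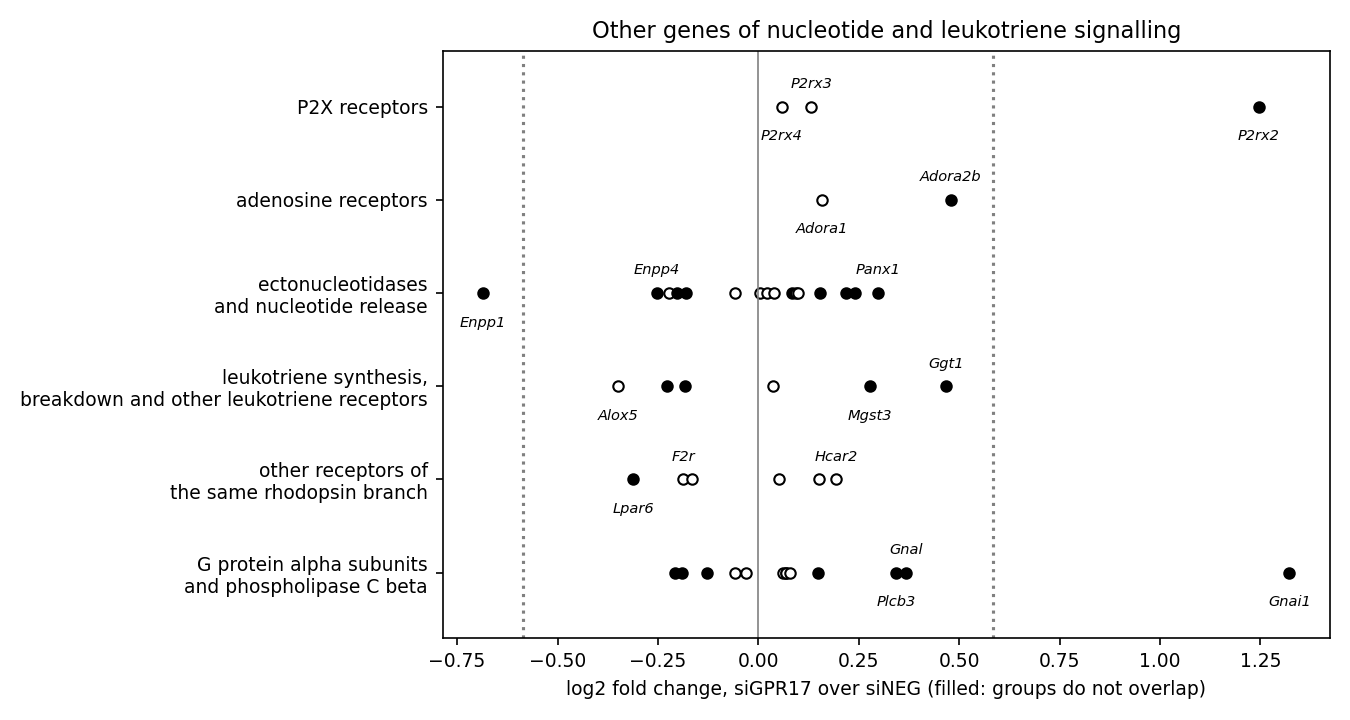
Log2 fold change (siGPR17 over siNEG) of the 46 tested genes in each signalling list, as filled points where the groups did not overlap and open points where they did, with dotted lines at a fold change of 1.5. Most points lie close to 0, and P2rx2, Gnai1 and Enpp1 lie beyond the dotted lines.

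Neuronal markers, given because Gad2 is also a neuronal gene, were 8 of 8 lower in siGPR17, beside 48.0% of all tested genes. Their median was -0.22, although 1 was higher after normexp, 1 after quantile normalization and 2 with spike-in scaling. For 6 of them the groups did not overlap, beside 25.3% of all tested genes that were lower without overlap. The summed signal of the list was 7132 and 8487 in siNEG and 6933 and 6668 in siGPR17 samples. Map2 (-0.18), Tubb3 (-0.21) and Rbfox3 (-0.11) were the brightest. The largest changes, named after their values were seen, were those of Stmn2 (-0.48) and Snap25 (-0.35). Of the fibroblast and mural genes, Col1a2 (0.21) and Col1a1 (0.43) were tested and overlapped between the groups. The part of these cells in the results above was not tested.

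Across the 15 alternative settings, the log2 fold change of Gpr17 stayed between -0.80 and -0.66. That of the brighter P2ry1 probe stayed between 0.52 and 0.74, that of the dimmer one between 0.26 and 0.51, and that of P2ry12 between -0.38 and -0.20. Of the tested probes, those of P2ry2 and P2ry6 changed sign in at least 1 setting. The filters, the floor, the spread model, the methods' t-test and the replicate block do not alter these fold changes. Leaving out 1 array cannot reverse groups that do not overlap, so the number of settings overstates how far the directions were tried.

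**Figure D5:**
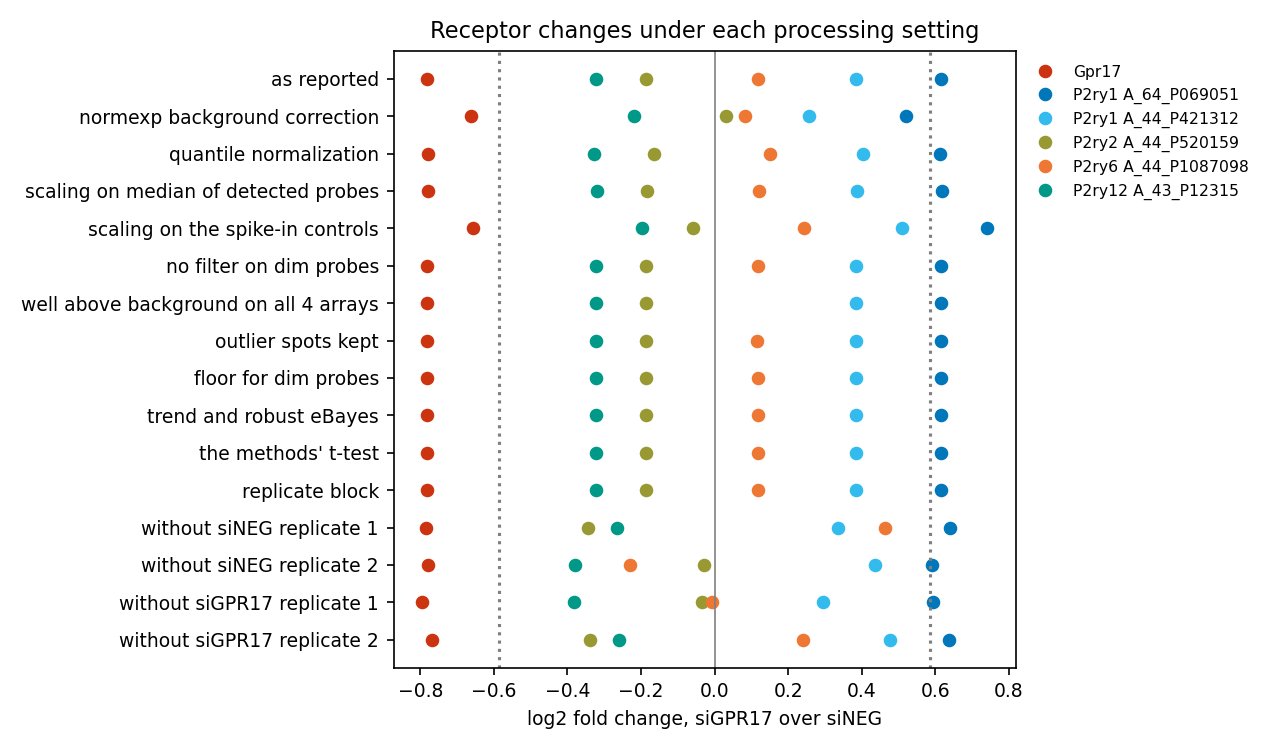
Log2 fold change (siGPR17 over siNEG) of the 6 tested receptor probes in the reported setting and in each alternative, 1 line per setting and 1 colour per probe, with dotted lines at a fold change of 1.5. Gpr17, P2ry12 and both P2ry1 probes stay on their side of 0 in every setting, while P2ry2 and P2ry6 cross it.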

How the data were processed

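RNA of rat OPCs was labelled with Cy3 and hybridised to SurePrint rat arrays, with 2 siNEG and 2 siGPR17 samples grouped by their labels. For each array the authors deposited the spot intensities that Agilent Feature Extraction 10.7.3.1 wrote, per the file headers. The processed intensities were already corrected for background, which turns very low signals into small positive ones, and no normalization between arrays had been done.

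Control and outlier-flagged spots were left out here, spots of a probe were averaged, and the 75th percentile of each array was subtracted on the log2 scale. Of 45565 probes with a value on every array, 28016 reached well above background on 2 or more arrays and were tested with lmFit and eBayes in limma 3.58.1 (R 4.3.3), two-sided and with Benjamini-Hochberg adjustment. Thresholds followed the study (adjusted p below 0.07, at least 1.5-fold), whose paragraph on arrays names no test. Printed linear signals are normalized values times a factor shared by all arrays. Where several probes of a listed gene were tested, the brightest stands for it, and every probe of the receptors is given. Where a group was not well above background on any of its arrays and the other was on all of its own, a bound was computed. The dim side of the fold change was then, on each array, the lowest signal well above background or the probe's own signal if higher. The number of arrays limits the precision. The labels call the samples independent without saying whether they came from separate cell preparations, so p-values measure the spread between these samples only, which may be technical.

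Probes were named by accession through a RefSeq gene table of GRCr8, used for names and neighbours only, since the array design was built on rn4. A name was found for 21109 of 45598 probes, among them 19258 of 20504 curated mRNA accessions and 0 of 6958 Ensembl transcripts. Named genes were all receptors, the 3 tested genes of each signalling list with the largest change, the 3 brightest of each marker list and the 5 nearest to Gpr17. The receptors and the lists were chosen with earlier results of these data known. The code was tested on simulated data. Alternatives covered background correction with normexp (offset 50, on spot medians), scaling, filters, outlier flags, a floor, the spread model, the methods' t-test, a replicate block and leaving out each array. The normexp offset is added to every signal and draws the log2 fold changes of dim probes towards 0.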

Additional observations from a re-analysis of the deposited data

How the results depend on the processing

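Over 15 alternatives, Gpr17, P2ry12 and both P2ry1 probes kept their direction. Many of these settings could not have reversed it. The filters, the floor, the spread model, the methods' t-test and the replicate block leave these log2 fold changes as they are. Leaving out 1 array cannot reverse groups that do not overlap. Only background correction, scaling and outlier flags could have changed the sign. Probes past the thresholds numbered 1 in the reported setting, 242 after normexp (147 higher, 95 lower), 420 with the trend and robust option (198 higher, 222 lower), and 0 with spike-in scaling, without a filter, with the filter on all 4 arrays, with the floor, in the methods' t-test and in the fit with the replicate block. Without adjustment, 4677 probes had a p under 0.05 in limma, 3644 in the methods' t-test and 3349 with the replicate block. Receptor probes past them numbered 1 after normexp (Gpr17, log2 fold change -0.66, adjusted p = 0.022) and 2 with the trend and robust option (Gpr17, -0.78, adjusted p = 0.0152, and the brighter P2ry1 probe, 0.62, adjusted p = 0.029). The cause was not tested. Spike-in scaling moved the median of all tested probes to 0.14. This scaling shifts the log2 fold change of every probe by the same amount, and subtracting that median takes the shift out. The values so obtained, -0.79 for Gpr17, 0.61 for the brighter P2ry1 probe and -0.33 for P2ry12, repeat the reported scaling. They are no separate check.

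After normexp P2ry2 turned to 0.031, Alox5 to 0.014 and F2r to 0.034. Microglial genes higher numbered 5 after normexp and 5 with spike-in scaling, and neuronal genes higher numbered 1 after normexp, 1 after quantile normalization and 2 with spike-in scaling. When single arrays were left out, limma assumed that the lone sample of a group varied like the others, and 0 probes passed in each case. Gpr17 then ranged from -0.80 to -0.77, the brighter P2ry1 probe from 0.59 to 0.64 and P2ry12 from -0.38 to -0.26. P2ry6 ranged from -0.23 (without the second siNEG array) to 0.46, P2rx3 from -0.14 to 0.40, P2rx4 from -0.048 to 0.16, Adora1 from -0.082 to 0.40, Alox5 from -0.75 to 0.055 and F2r from -0.48 to 0.10. Genes higher ranged from 6 (without the first siNEG array) to 11 for nucleotide release and breakdown, from 1 (without the second siNEG array) to 2 for adenosine receptors, from 2 to 7 (without the first siNEG array; 4 without the second siGPR17 array) for microglia and from 0 to 1 (without either the first siNEG or the second siGPR17 array) for neurons.

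The replicate numbers were not taken as pairs, since the deviations of same-numbered samples correlated at -0.07 and the labels do not tie the numbers to a shared preparation. With the replicate block, Gpr17 kept its change of -0.78 (adjusted p = 0.390 in limma), P2ry1 had 0.62 (adjusted p = 0.390) and P2ry12 -0.32 (adjusted p = 0.420), and 0 receptor probes passed. P2ry6 had no value under the filter on all 4 arrays. The planned display of probes named by a gene-name column was not run, because the columns used here hold accessions only.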
